A study of Mus musculus with 5 samples.

Results

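The genes described here encode the intraflagellar transport machinery and the BBSome, the carriers that build and maintain cilia. The set was a list of 36 mouse genes, and all 36 were among the 16347 genes of the count table. It held 5 genes of the IFT-A complex, 12 of IFT-B, 10 of the BBSome with its chaperonin-like and regulatory partners, 2 dynein-2 intermediate chains, 4 kinesin-2 genes and 3 ARL and TULP trafficking factors. The list was made by function, with earlier results of these data known.

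Cilia are built from the base outwards by trains of proteins that run along the microtubules of the axoneme. Kinesin-2 motors pull trains with IFT-B towards the tip, and dynein-2 pulls them back with the help of IFT-A. The BBSome rides on these trains and carries membrane proteins out of the cilium, while ARL3 and TULP3 handle the entry and release of other membrane cargo. Ependymal cells line the ventricles and the central canal and carry bundles of motile cilia that move the cerebrospinal fluid.

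Single cells were sorted from 3-month-old mice and each was sequenced by Smart-seq2, a full-length method without molecular identifiers. Ependymal tissue of FoxJ1CreERT2 R26TdT mice (10 animals, 5 females and 5 males) came from the midbrain aqueduct, the lateral and the third ventricles and the spinal cord, and midbrain tissue came from Nkx2-2Cre R26TrapC mice (7 females). Each of the 5 groups was 1 tissue sample, and the labels do not link wells to animals, so no difference below has a replicate check. The Cre of the first line follows Foxj1, a regulator of motile cilia, so those samples were selected for the kind of cell that uses these genes. The Cre of the second line is driven by Nkx2-2, a gene of the ventral neural tube and the oligodendrocyte lineage. All animals carried a Cre and a reporter allele, and a sample without them was not analysed here.

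The 5 samples held 1473 cells, with medians of 606241.5 to 1362236 reads per cell in the classes below. Midbrain cells of both lines were split by 3 marker genes, taken in turn. Ccdc153-high cells had at least 1000 CPM (reads scaled to a common total) of Ccdc153, an ependymal cilium gene. Of the rest, Sspo-high cells had at least 500 CPM of Sspo, which encodes SCO-spondin, the secreted protein of the subcommissural organ, and Mog-high cells had at least 500 CPM of Mog, a myelin gene. The Nkx2-2 line gave 19 Ccdc153-high, 12 Sspo-high, 243 Mog-high and 53 other cells. The Foxj1 line midbrain gave 317 Ccdc153-high, 196 Sspo-high, 0 Mog-high and 34 other cells, and the other regions entered whole, with 240 cells from the lateral ventricle, 245 from the third ventricle and 114 spinal cord cells. Because Ccdc153 is itself a cilium gene, the split between Ccdc153-high cells and the rest leans on the biology that is measured here.

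The marker sums here leave out Ccdc153, Sspo and Mog, whose levels made the classes. The other 5 ependymal markers (Foxj1, Tmem212, Rarres2, Pifo and Dynlrb2) summed to 4446 to 9738 CPM in the Ccdc153-high cells and the whole regions, to 1913 to 1984 CPM in the Sspo-high cells, and to 31.1 CPM in the Mog-high cells. The 4 oligodendrocyte markers Mag, Mobp, Cnp and Mbp summed to 41253 CPM in the Mog-high cells and to at most 1151 CPM in the ependymal classes of the Foxj1 line. In the 19 Ccdc153-high cells of the Nkx2-2 line they summed to 1427 CPM, with Cnp highest at 952 CPM, against 13667 CPM in the Mog-high cells. Of those 19 cells 1 passed a second threshold, as did 16 of the 317 Ccdc153-high cells of the Foxj1 line midbrain. Carry-over of RNA between wells was not tested.

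In the Ccdc153-high midbrain cells of the Foxj1 line every member was read, and levels per kilobase of exon ran from 1.98 to 211.9 within the machinery. These levels divide the CPM by the gene's merged exon length. That length joins the exons of all annotated transcripts of a gene, so the order of genes also depends on the annotation. Among IFT-A genes, Ift43, a small subunit, stood highest at 211.9 CPM per kilobase and Wdr35, a large propeller subunit, followed at 53.7. In CPM without the division by length, Ift43 was at 350 and Wdr35 at 391. Among IFT-B genes, Ift20, an adaptor that also sits at the Golgi, stood at 186.7 and Ift22, a small GTPase-like subunit, at 142.5 CPM per kilobase. Arl6, the GTPase that recruits the BBSome to membranes, led its list at 84.6, above the subunit gene Bbs2 at 42.4. The BBSome assembly genes Bbs10 and Bbs12, which resemble chaperonins, lay at 5.74 and 6.09 CPM per kilobase. Between the dynein-2 chains, Wdr34 stood at 115.1 and Wdr60 at 29.9. The kinesin-2 genes were uneven: Kif3a, which encodes a motor subunit, stood at 60.1 and Kifap3, the adaptor subunit, at 27.8, while Kif3b, the partner motor of Kif3a, stood at 3.34 and Kif17, a separate kinesin-2 motor, at 1.98. Arl3 led the trafficking factors at 101.2 CPM per kilobase, and Tulp3 was low at 3.66.

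**Figure D1:**
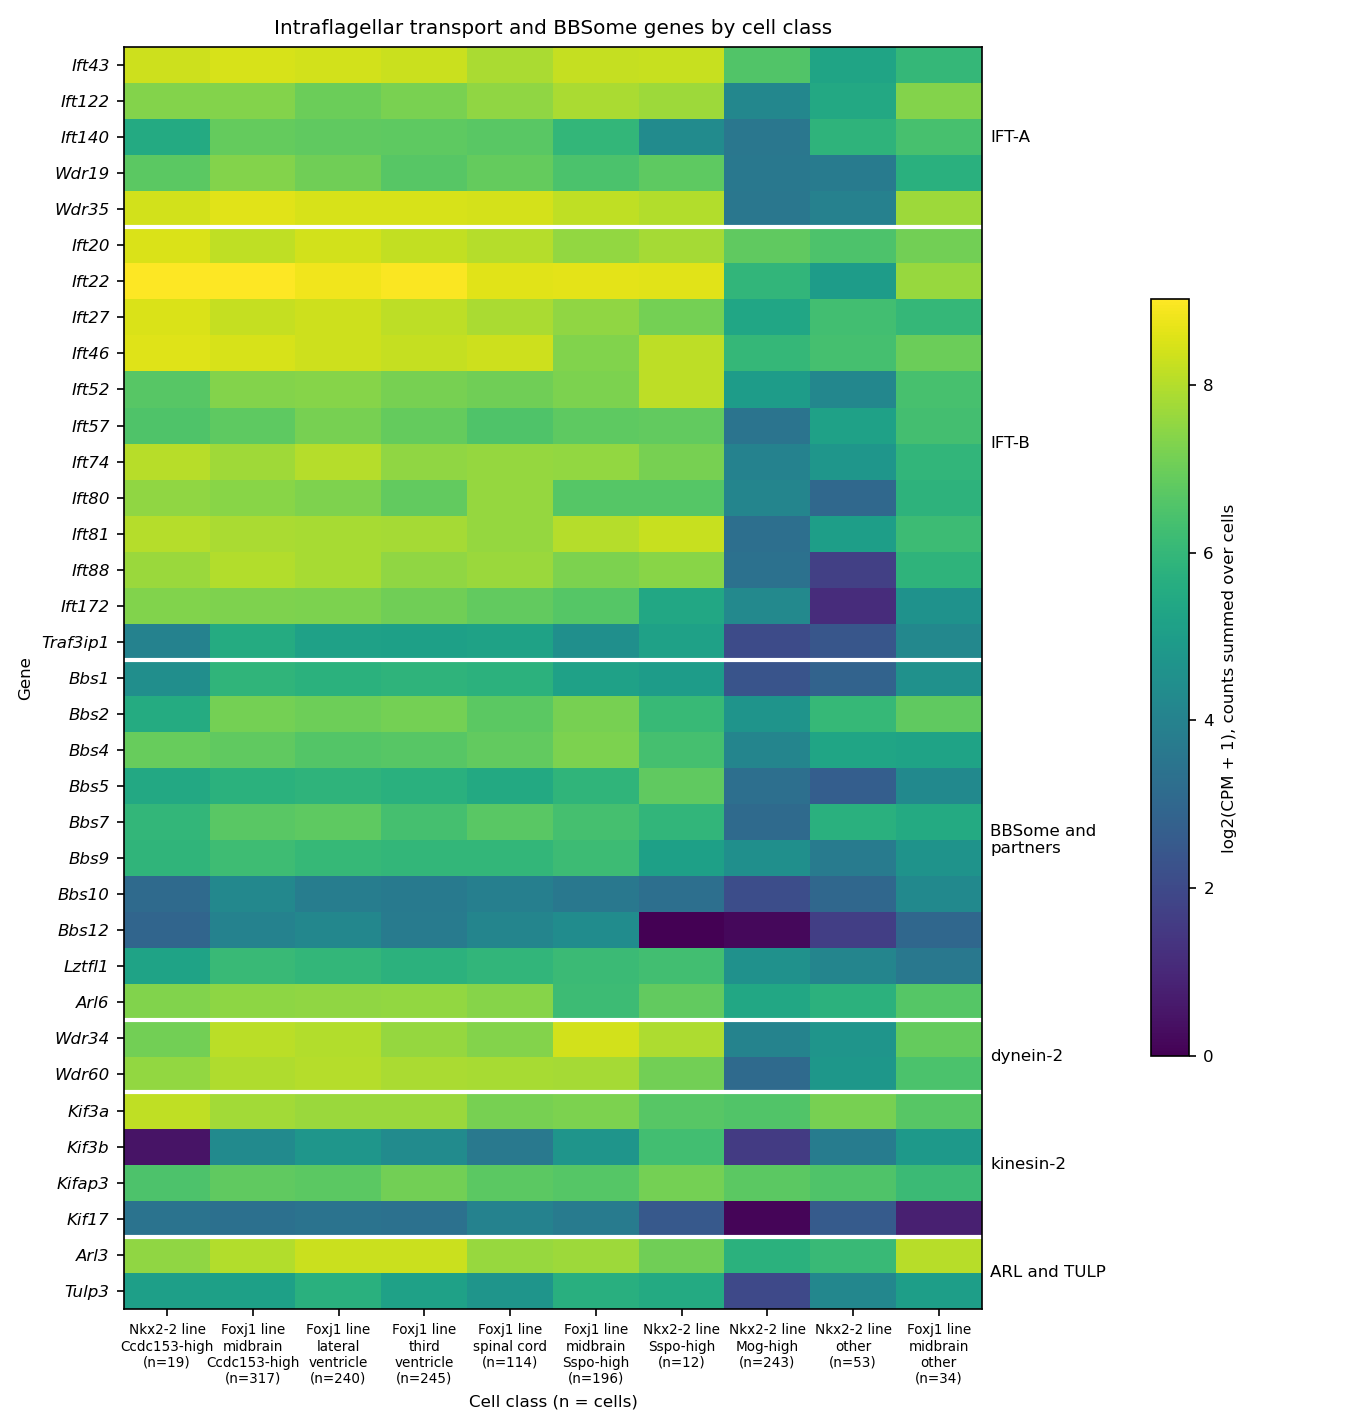
Heat map of 35 of the genes (rows, grouped by complex) in 10 cell classes (columns, n = cells), as log2(CPM + 1) of counts summed over the cells of a class. The left 7 columns, all Ccdc153-high, whole-region or Sspo-high classes, are brighter for most genes than the Mog-high and other columns, while Kifap3, Kif3a and Ift20 keep a similar shade across most columns.

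The promoters of these genes were searched for the X-box, the element bound by RFX factors, which drive many cilium genes. The letters searched on both strands were GTTGCC, then any 2 bases, then GGNAAC, where N is any base, in the window from 250 bases before to 50 bases after the RefSeq gene start (build GRCm38.p6). Promoters were listed for 33 of the 36 members, all but Ift80, Ift81 and Ift122. A stretch with at most 2 mismatches was found in 10 of the 33 (30.3%), against 9.57% of all 27025 promoters of the table. At most 1 mismatch was found in 5 members (15.2%), against 2.09% of all promoters, and the full letters in Bbs7 alone (3.03%), against 0.355%. Among the 11050 genes of the count table with a promoter, the shares were 11.9% at most 2 mismatches, 3.07% at most 1 and 0.434% for the full letters. By complex, the 10 members with at most 2 mismatches included Ift140 in IFT-A, Ift22, Ift57 and Traf3ip1 in IFT-B, Bbs1, Bbs4, Bbs7 and Lztfl1 in the BBSome list, and Wdr34 in dynein-2. The 5 closest stretches are shown because they can be set beside the levels of their genes, with the letters of the match in capitals and 8 flanking bases on each side, read along the strand of the gene.
Bbs7 (chr3:36613489-36613518, minus strand): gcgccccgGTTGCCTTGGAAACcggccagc
Bbs1 (chr19:4906605-4906634, minus strand): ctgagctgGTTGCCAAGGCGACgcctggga
Bbs4 (chr9:59353464-59353493, minus strand): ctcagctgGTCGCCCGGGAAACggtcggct
Ift22 (chr5:136908109-136908138, plus strand): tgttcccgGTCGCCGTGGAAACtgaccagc
Ift57 (chr16:49699199-49699228, plus strand): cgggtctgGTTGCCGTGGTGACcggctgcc
The match began 121 bases before the start of Bbs7, 33 before that of Ift22 and 87 before that of Ift57, and it lay just after the start of Bbs1 and Bbs4. The shorter letters GTTGCC, which the longer ones contain, were present on either strand in 14 of the 33 members (42.4%), against 14.1% of all promoters. Among the genes of the count table the share was 15.5%. The same search gave 9 of 15 promoters of transition zone genes (60.0%), 8 of 21 of motile axoneme genes (38.1%) and 0 of 7 of cytoplasmic dynein-1 and kinesin-1 genes with at most 2 mismatches. A match is a run of letters and was not tested as a binding site. RFX genes themselves were read in the Ccdc153-high midbrain cells of the Foxj1 line, with Rfx2 at 236.9 CPM and Rfx3 at 126.9 CPM.

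As a share of a cell's reads, the machinery took 4831 to 6030 CPM in the ependymal classes and far less in the oligodendrocyte lineage. The 36 genes together took 5396 CPM in the Ccdc153-high cells of the Nkx2-2 line and 6030 CPM in those of the Foxj1 line midbrain. They took 5940 CPM in lateral ventricle cells, 5485 CPM in those of the third ventricle and 5057 CPM in spinal cord cells, and 4831 CPM in the Sspo-high cells of the Foxj1 line midbrain. The 12 Sspo-high cells of the Nkx2-2 line gave 4852 CPM, close to the Sspo-high cells of the other line. Far below stood the Mog-high cells at 982 CPM, the other cells of the Nkx2-2 line at 1223 CPM and the other cells of the Foxj1 line midbrain at 2643 CPM. Blocks of 96 consecutive wells with at least 10 cells of a class gave the spread within a sample. They ran from 5538 to 6337 CPM in the Ccdc153-high midbrain cells and from 5711 to 6193 in the lateral ventricle, so these classes overlapped. They ran from 5223 to 5688 CPM in the third ventricle, from 4972 to 5204 in the spinal cord and from 4502 to 5199 in the Sspo-high midbrain cells. The spinal cord and Sspo-high blocks thus all lay below those of the Ccdc153-high midbrain cells. The Mog-high blocks, at 902 to 1072 CPM, lay far below all of these. With each cell reduced to 100000 reads, a median of 23 of the 36 genes was detected in a Ccdc153-high midbrain cell of the Foxj1 line and 22 in a Sspo-high one, against 7 in a Mog-high cell. The median was 25 in the lateral ventricle and 24 in the third ventricle. It was 18 in the spinal cord, 18 in the Ccdc153-high cells of the Nkx2-2 line and 23 in the Sspo-high cells of that line. The 2 classes at 18 also had fewer genes of any kind detected per cell at full depth, with medians of 3979.5 and 4117. Those medians were 4866 to 5435.5 in the other ependymal classes of the Foxj1 line.

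**Figure D2:**
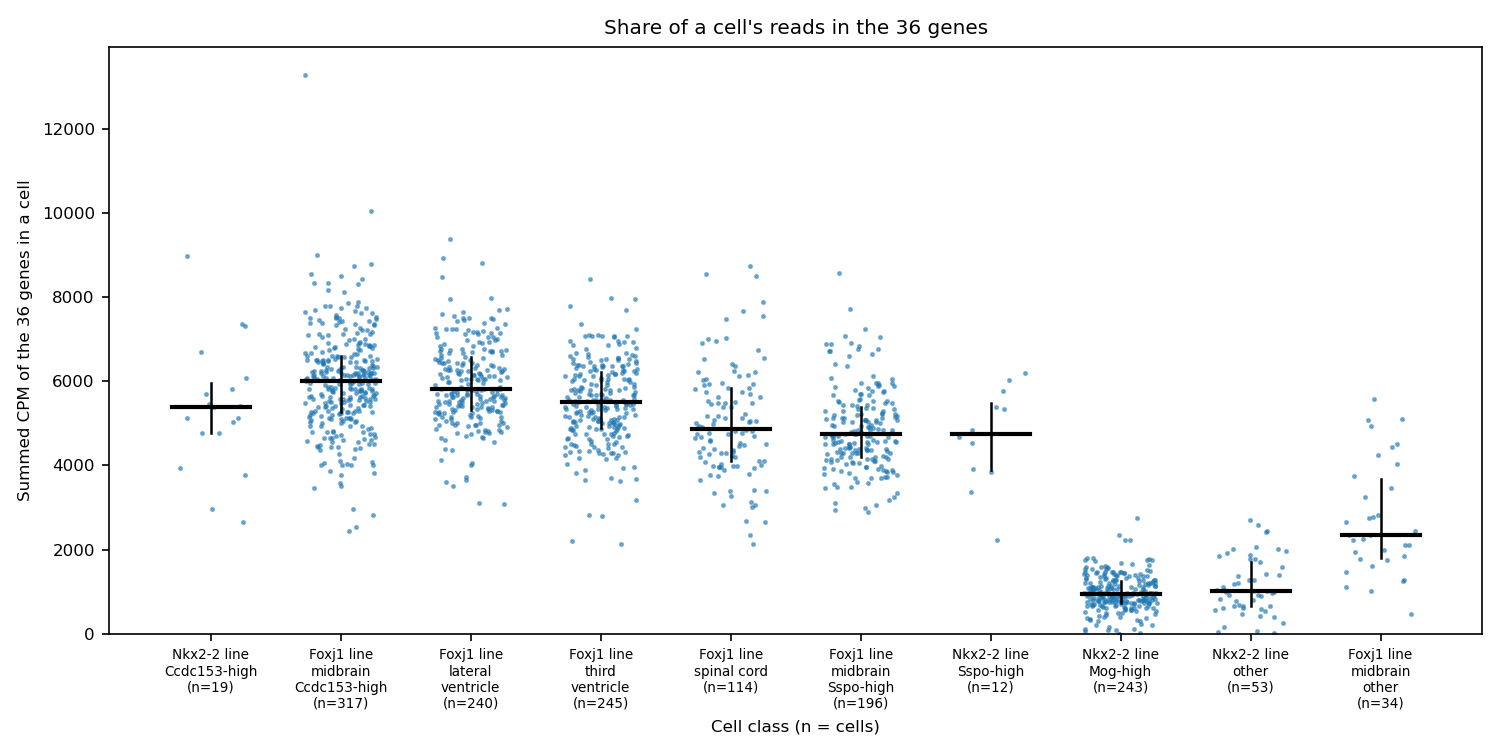
Summed CPM of the 36 genes in each cell (points) by class, with the median (horizontal line) and quartiles (vertical line), on a linear axis from 0. Medians sit between 4737 and 6014 CPM in the 7 classes on the left and at 935 CPM in the Mog-high cells.

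The first comparison set Ccdc153-high against Sspo-high cells of the Foxj1 line midbrain. The subcommissural organ is a secretory ependymal gland, and its cells bear few cilia. Most of the machinery differed by less than 2-fold between them. A gene needed 10 CPM in either class and was called at a difference of at least 2-fold. By that rule 3 of the 36 members were higher in Ccdc153-high cells, beside 14.9% of all genes tested, and 0 were lower, beside 18.3%. The median log2 ratio of the members was 0.26, while that of all genes was -0.16, so the members lay 0.42 above all genes, and 0.42 to 0.46 above them under the 3 other ways of scaling.

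The 3 members called were Arl6, Ift46 and Traf3ip1, and none of them was called higher in the 19 Ccdc153-high over the 12 Sspo-high cells of the Nkx2-2 line, where their log2 ratios were 0.46, 0.45 and -1.21. Arl6 (chr16:59612949-59639391, minus strand) had 177.5 CPM in Ccdc153-high cells (126 to 249.7 over the 7 blocks) and 71.9 CPM in Sspo-high cells (36.9 to 90.5). The blocks of the classes did not overlap, and the ratio was 2.47-fold (log2 1.30, 95% counting interval 1.28 to 1.33). Ift46 (chr9:44767908-44793447, plus strand), an IFT-B subunit that in the alga Chlamydomonas carries outer dynein arms, had 351 CPM in Ccdc153-high cells and 158 CPM in Sspo-high cells. It was higher in Ccdc153-high cells in 7 of 7 blocks, with a log2 ratio of 1.15 (1.13 to 1.17) overall and of 0.65 to 1.78 within blocks. Traf3ip1 (chr1:91494647-91529307, plus strand), whose IFT-B protein binds microtubules, had 45.7 CPM in Ccdc153-high cells and 21.5 CPM in Sspo-high cells. That difference was less even, since the log2 ratio was 1.09 overall and ran from -1.07 to 2.46 over the blocks.

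Just under the threshold stood genes of IFT-A, IFT-B and the BBSome list. Ift140, whose protein forms the core of IFT-A, had 118 CPM in Ccdc153-high cells and 62.1 CPM in Sspo-high cells (log2 0.92), and Wdr19, another core gene, had 163 CPM and 87.2 CPM in the same order (log2 0.90). Wdr19 was higher in all 7 blocks and Ift140 in 6, but Wdr19 was at -0.02 in the Nkx2-2 line. Ift80, a peripheral IFT-B gene, had a log2 ratio of 0.76. The BBSome subunit gene Bbs1, with 58.6 CPM in Ccdc153-high cells and 34.8 CPM in Sspo-high cells, had one of 0.75, Ift88 one of 0.74 and Ift27, the GTPase that links IFT-B to BBSome exit, one of 0.72. Ift27 blocks did not overlap, at 248 to 360 CPM in Ccdc153-high cells and 145 to 223 CPM in Sspo-high cells. Arl6 and Ift27 were the 2 members whose blocks all lay higher in Ccdc153-high cells, beside 8.44% of all genes, and 0 had blocks all lower, beside 7.4%. In the Nkx2-2 line Bbs1 was at -0.54, while Ift140, Ift80, Ift88 and Ift27 were above 0 (1.22, 0.89, 0.27 and 1.39).

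A smaller group pointed the other way, none of it by 2-fold. Wdr34, a dynein-2 intermediate chain, had 271 CPM in Ccdc153-high cells and 340.1 CPM in Sspo-high cells, and it was lower in Ccdc153-high cells in 7 of 7 blocks (log2 -0.33, within blocks -0.74 to -0.17). Ift122, the IFT-A gene whose loss raises Hedgehog signalling in mice, had 163 CPM in Ccdc153-high cells and 235 CPM in Sspo-high cells (log2 -0.53) and was lower in 6 of 7 blocks. The BBSome subunit gene Bbs4 had 112 CPM in Ccdc153-high cells and 149 CPM in Sspo-high cells (log2 -0.41), also lower in 6 blocks. In the Nkx2-2 line Bbs4 was at 0.54, while Wdr34 and Ift122 stayed below 0 (-0.83 and -0.36). Tulp3, which works with IFT-A to bring receptors into the cilium, had 34.2 CPM in Ccdc153-high cells and 50.8 CPM in Sspo-high cells (log2 -0.57), but its blocks ran from -1.15 to 3.24. Kif17, Bbs12 and Kif3b, with log2 ratios of -0.44, -0.43 and -0.40, were at 9.07 to 24.8 CPM in both classes and differed in sign between blocks, and Kif3b was at 0.51 with the class thresholds at 0.5 times their value.

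By complex, the median log2 ratio was 0.63 for IFT-B, with 10 of 12 genes above 0 but 2 called, and 0.46 for IFT-A, with 4 of 5 above 0. Of all 10796 genes tested, 4596 were above 0, and 14.9% were called higher and 18.3% lower. The IFT-B and IFT-A medians stayed above 0 under each scaling (0.63 to 0.82 and 0.40 to 0.59). The medians of the BBSome list (0.02), dynein-2 (-0.09) and kinesin-2 (-0.11) were within the shift that scaling alone gave, and the last 2 changed sign with it. The genes of the moving axoneme stood apart more: 10 of 24 motile axoneme genes were called higher and 1 lower, with a median of 0.89. Dnali1, a light chain of the inner dynein arms, had 1250 CPM in Ccdc153-high cells and 339 CPM in Sspo-high cells, while Rsph1, a radial spoke gene, had 2137 and 1389 CPM and Tekt1, a tektin gene, 679 and 448 CPM in that order. Of 18 genes of the transition zone, the gate at the base of the cilium, 3 were called higher and 1 lower (median 0.45). Of 9 cytoplasmic dynein-1 and kinesin-1 genes tested, 0 were higher and 2 lower (median -0.20). The 3 higher and the 2 lower of these lists were near the shares of all genes called that way. The 5 ependymal markers other than Ccdc153 stood at 8392 CPM in Ccdc153-high cells and 1984 CPM in Sspo-high cells, and Spdef, a subcommissural organ marker that did not make the classes, at 78.5 CPM in Ccdc153-high cells and 1786 CPM in Sspo-high cells. Their part in the ratios was not tested beyond leaving out cells over more than 1 threshold, which left 3 members called higher.

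**Figure D3:**
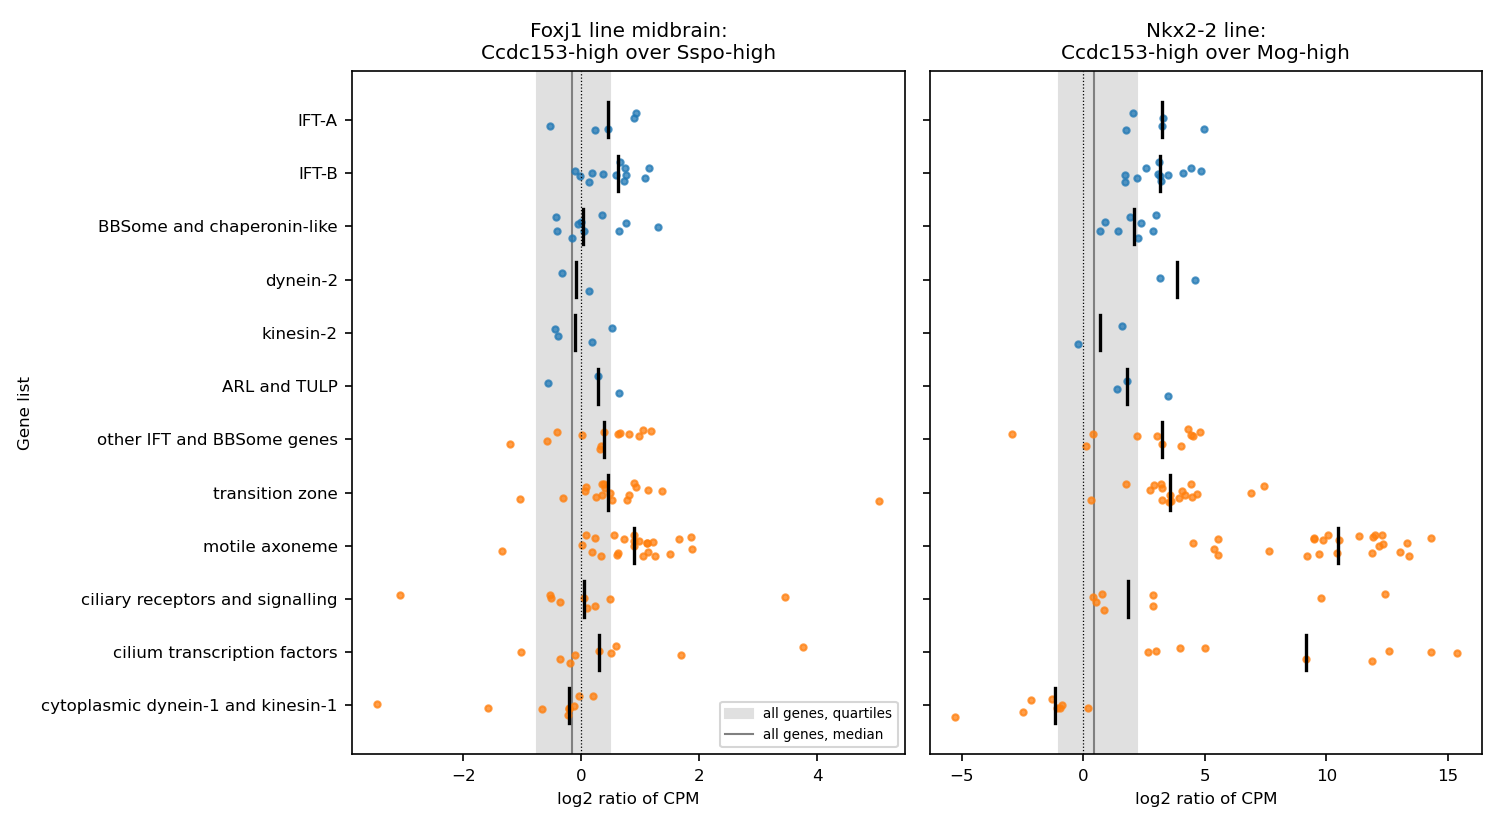
Log2 ratio of CPM for each gene (points, spread vertically for legibility) by list, with list medians (black bars) and the quartiles and median of all genes (grey), for Ccdc153-high over Sspo-high cells (left) and Ccdc153-high over Mog-high cells (right). On the left the IFT-B median is 0.63 and the motile axoneme median 0.89, and on the right the members' lists lie between the dynein-1 and kinesin-1 list at -1.17 and the motile axoneme at 10.49.

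The second comparison, within the Nkx2-2 line, set Ccdc153-high cells against Mog-high cells, and so ciliated cells against myelinating oligodendrocytes, which are not known for cilia once mature. Nearly all of the machinery was higher in the Ccdc153-high cells, yet its genes were not silent in the Mog-high cells. Of 32 members with at least 10 CPM in either class, 29 were called higher in Ccdc153-high cells, beside 39.6% of all genes, and 0 lower, beside 25.0%, or 64.6% either way. The deposited scaling split all genes 32.2% to 31.7% and called 27 members higher and 0 lower. The median log2 ratio of the members was 2.74 and that of all genes 0.46, a gap of 2.28, and the gap was 2.33 to 2.39 under the other scalings. The Ccdc153-high side rested on 19 cells. With the 317 Ccdc153-high cells of the Foxj1 line midbrain in their place, an alternative chosen after seeing the data, 34 of 35 members were higher, beside 39.3% of all genes, and 0 lower, beside 17.5%, with a median of 3.09 against 0.52 for all genes.

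Among the members tested, the 6 largest ratios were those of Wdr35, Ift81, Wdr60, Ift88, Ift74 and Tulp3, while other IFT-A and IFT-B genes were among the smaller ones, such as Ift43 and Ift20. Wdr35 (chr12:8973892-9028847, plus strand) had 336 CPM in Ccdc153-high cells and 10.8 CPM in Mog-high cells, a log2 ratio of 4.96 (4.90 to 5.02). Ift81 (chr5:122550204-122614518, minus strand), which binds tubulin cargo together with its partner, had 257 CPM in Ccdc153-high cells and 8.88 CPM in Mog-high cells (log2 4.85). That partner, Ift74, had 262 CPM and 15.0 CPM in the same order (log2 4.12). Both IFT-B genes were low in Mog-high cells. Wdr60, the second dynein-2 intermediate chain, had 186 CPM in Ccdc153-high cells and 7.64 CPM in Mog-high cells (log2 4.60). Ift88, the gene disrupted in a classical mouse model of polycystic kidney disease, had 203 CPM and 9.32 CPM (log2 4.44), and Tulp3 had 33.3 CPM and 2.94 CPM (log2 3.50), Ccdc153-high cells given first. Kif17, Bbs12, Bbs10 and Kif3b were under 10 CPM in both classes and were not tested.

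Other members had higher levels in the Mog-high cells. Per kilobase, the highest there were Ift20 at 72.6, Ift43 at 57.1, Kifap3 at 26.2, Kif3a at 26.0, Arl3 at 21.1 and Arl6 at 19.6 CPM per kilobase. The kinesin-2 adaptor gene Kifap3 (chr1:163779583-163917109, plus strand) was the 1 member tested with a ratio below 0, at 89.6 CPM in Ccdc153-high cells and 105 CPM in Mog-high cells (log2 -0.23, and 0.06 at most when 1 block was left out). With the Foxj1 line midbrain Ccdc153-high cells in place of the Nkx2-2 line ones, Kifap3 was at 0.09. Its Mog-high blocks ran from 85.6 to 130.0 CPM. Kif3a, the motor subunit it binds, had 284 CPM in Ccdc153-high cells and 93.2 CPM in Mog-high cells (log2 1.61), with Mog-high blocks of 62.3 to 110.4 CPM. Kif3a was thus called lower in Mog-high cells, and Kifap3 was not called. Ift20 (chr11:78536361-78541737, plus strand) had 361 CPM in Ccdc153-high cells and 111 CPM in Mog-high cells (log2 1.70), and Ift43 had 321 CPM and 94.2 CPM in that order (log2 1.77). Lztfl1, which regulates BBSome traffic, and the BBSome subunit gene Bbs2 were the other 2 members tested but not called, with log2 ratios of 0.68 and 0.90.

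The genes high and low in Mog-high cells also differed in how many cells held a read. With 100000 reads per cell, Ift20 was read in 66.3% of Mog-high cells, Ift43 in 62.6%, Kifap3 in 59.3% and Kif3a in 53.1%. Ift81 was read in 7.82% of Mog-high cells, Wdr60 in 10.3% and Wdr35 in 11.5%. In the 19 Ccdc153-high cells of the Nkx2-2 line, Ift81 was read in 73.7% (95% interval 48.8 to 90.9) and Kifap3 in 47.4% (24.4 to 71.1). These intervals cover counting over cells of 1 sample, and the genes were picked for their ratios in the same cells, so the shares are given as a description.

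**Figure D4:**
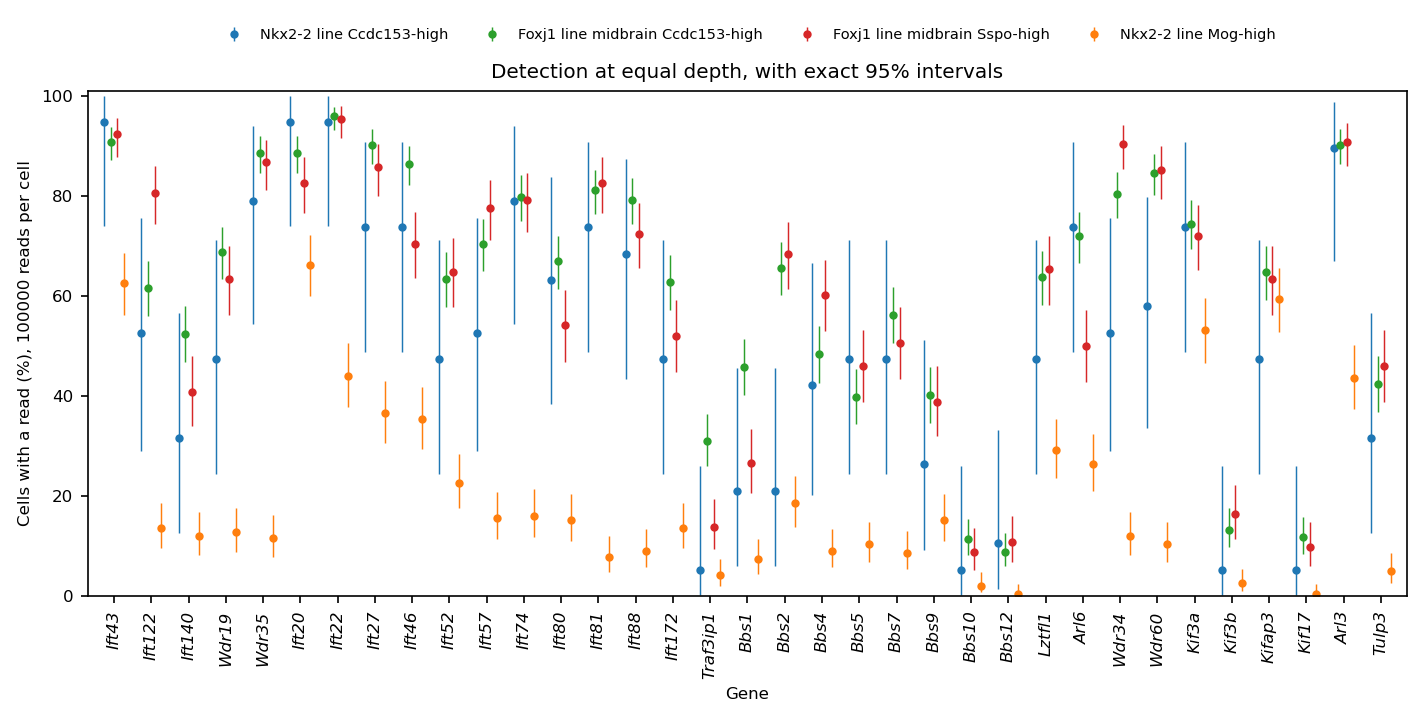
Percent of cells with at least 1 read of each of 35 genes after reducing every cell to 100000 reads, in 4 classes, with exact 95% intervals that cover counting error over cells only. Mog-high cells (orange) lie low for most genes, at 7.82% for Ift81, but reach 66.3% for Ift20 and 59.3% for Kifap3, near the other classes for Kifap3.

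Set beside other gene lists, the machinery lay between the axoneme and the general transport motors. Of all genes, 39.6% were called higher and 25.0% lower. All 24 motile axoneme genes were called higher in Ccdc153-high cells, with a median log2 ratio of 10.49, and their summed level was 10031 CPM there and 29.0 CPM in Mog-high cells. Rsph1 had 1948 CPM in Ccdc153-high cells and 0.4 CPM in Mog-high cells, and Dnali1 had 1037 and 0.1 CPM. Of 18 transition zone genes, 17 were called higher (median 3.58), such as Tctn2 with 226 CPM in Ccdc153-high cells and 1.9 CPM in Mog-high cells. Of 8 cytoplasmic dynein-1 and kinesin-1 genes tested, 0 were higher and 5 lower (median -1.17), with Dctn2, a dynactin gene, at 80.4 and 359 CPM in that order. Median log2 ratios within the machinery were 3.87 for dynein-2, 3.24 for IFT-A, 3.15 for IFT-B, 2.09 for the BBSome list, 1.80 for the ARL and TULP genes and 0.69 for the 2 kinesin-2 genes tested. The kinesin-2 median ran from 0.37 to 1.84 under the other scalings. The kinesin-2 genes that passed 10 CPM were not the same under each, so this range is not that of the 2 genes alone. Of 11 further IFT and BBSome genes tested, 8 were higher and 1 lower. The lower one, Mkks, a chaperonin-like partner of Bbs10 and Bbs12, had 8.1 CPM in Ccdc153-high cells and 62.0 CPM in Mog-high cells. Foxj1, which drives motile cilium genes, had 328 CPM in Ccdc153-high cells and 20.5 CPM in Mog-high cells, and the 4 oligodendrocyte markers had 1427 and 41253 CPM. The part of the 1427 CPM of oligodendrocyte markers in these ratios was not tested, and with the Foxj1 line cells, where those markers summed to 770.0 CPM, the members' median was 3.09 as given above.

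Across 4 ependymal regions of the Foxj1 line the machinery varied little. Between the highest and the lowest of the 4 regions, the median member differed 1.34-fold, and the median of all genes 1.64-fold. The difference was under 2-fold for 34 of 36 members (94.4%), against 66.7% of all genes. The exceptions were Kif3b (18.8 CPM in midbrain Ccdc153-high cells, 25.3 CPM in lateral ventricle cells, 19.5 CPM in those of the third ventricle and 11.6 CPM in spinal cord cells) and Tulp3 (34.2, 51.6, 35.0 and 25.0 CPM in that order). Motile axoneme genes varied about as little, with a median of 1.33-fold. The difference was also under 2-fold for 8 of 8 cytoplasmic dynein-1 and kinesin-1 genes tested (median 1.51-fold). It was so for 13 of 13 further IFT and BBSome genes (1.44-fold) and 16 of 18 transition zone genes (1.42-fold). With 2-fold as the rule, 0 of 35 members were called higher or lower in the midbrain cells than in the lateral ventricle, beside 2.79% and 2.29% of all genes. Against the third ventricle 0 of 35 were called, beside 3.12% higher and 5.07% lower (8.19% either way), and against the spinal cord 0 of 36, beside 10.7% and 8.95% (19.7% either way).

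Within that narrow range some genes differed between regions. The midbrain cells were highest of the 4 for 17 members (47.2%, against 20.7% of all genes) and the lateral ventricle for 13 (36.1%, against 18.5%). The spinal cord was lowest for 20 (55.6%, against 35.5%) and the third ventricle for 12 (33.3%, against 22.5%). Of the motile axoneme genes, 58.3% were highest in midbrain. Only the midbrain cells were picked by a threshold on Ccdc153, a cilium gene, while the other regions entered whole. Region and that choice of cells cannot be told apart in these ranks. Wdr34, picked for its values, had 271 CPM in midbrain Ccdc153-high cells, 249 CPM in lateral ventricle cells, 192 CPM in those of the third ventricle and 159.9 CPM in spinal cord cells. Its 7 midbrain blocks (219 to 324 CPM) did not overlap the 3 of the third ventricle (163 to 215) or the 2 of the spinal cord (151 to 176). They overlapped those of the lateral ventricle. Wdr34 was the 1 member with blocks apart from the third ventricle, beside 1.82% of all genes higher and 3.67% lower, and Wdr34 and Ift27 were the 2 apart from the spinal cord, beside 9.13% higher and 8.38% lower, all higher in midbrain. No member was apart from the lateral ventricle, beside 1.4% higher and 1.48% lower. The count against the third ventricle was near the share of all genes, and that against the spinal cord was below it. Wdr19 had 163 CPM in midbrain cells and 100.1 CPM in the third ventricle (log2 0.70), Kif3a had 216 CPM in midbrain cells and 142 CPM in the spinal cord (log2 0.60), and Arl3 had 252 CPM in midbrain cells and 314 CPM in the lateral ventricle (log2 -0.32). Against the spinal cord, 29 members had a ratio above 0 and 7 below, while of all genes 5059 were above and 5270 below. The lowest was Kif17, with 9.07 CPM in midbrain cells and 14.9 CPM in the spinal cord (log2 -0.72). Tulp3 against the spinal cord had a log2 ratio of 0.45 that became -0.08 with the deposited scaling, so its direction there is not settled. The title of the midbrain sample carries 2 project codes, of which the titles of the other regions share the first, and cell numbers up to 480 were taken as the first code. Against the lateral ventricle, Ift122 (log2 0.38) and Bbs10 (0.43) were at -0.11 and -0.78 in the midbrain cells of the second code. Against the third ventricle, Ift88 (0.43) and Bbs10 (0.52) were at -0.14 and -0.69 in them.

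**Figure D5:**
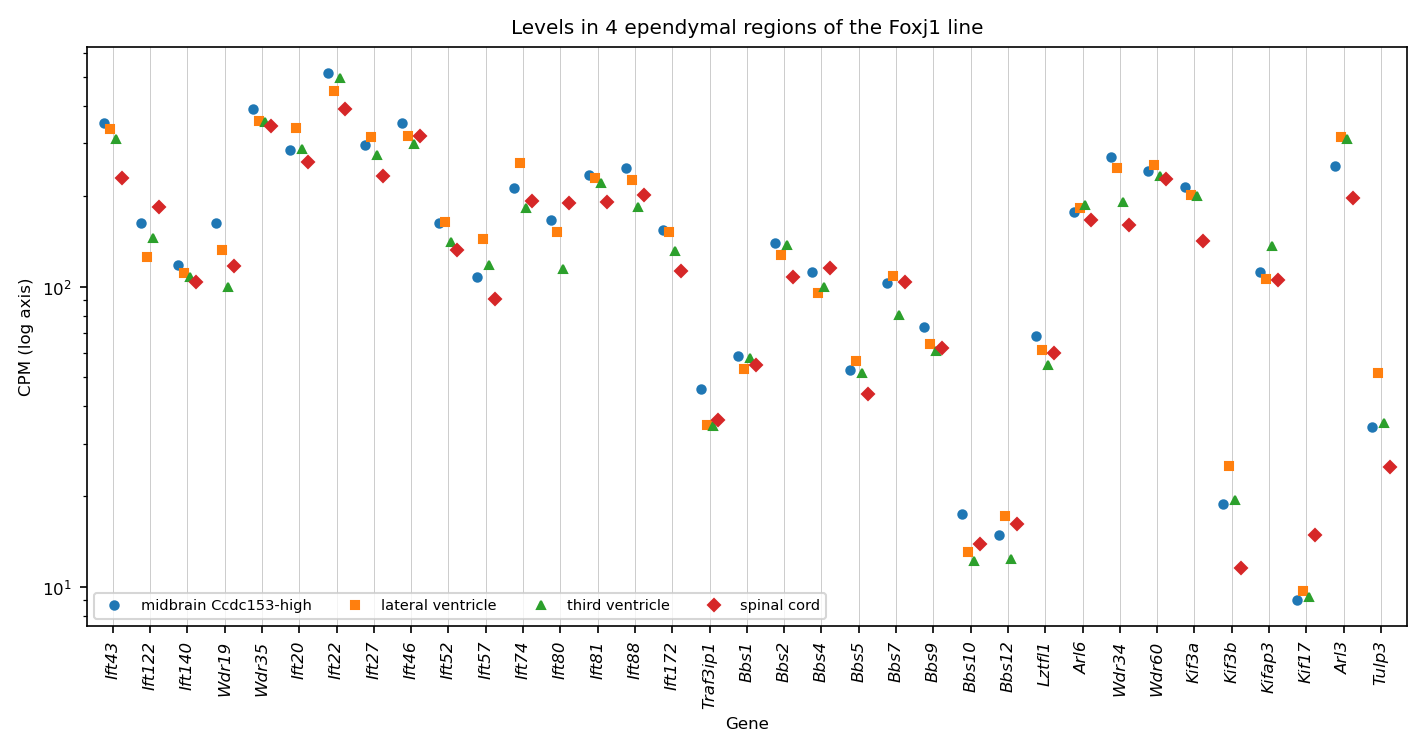
CPM of 35 of the genes on a log axis in cells of 4 regions of the Foxj1 line, with midbrain Ccdc153-high cells first. The 4 symbols of a gene lie close together except for Kif3b and Tulp3, and Wdr34 is at 159.9 CPM in the spinal cord, against 271 CPM in midbrain.

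The Ccdc153-high cells of both lines could be set side by side, with 19 cells from the Nkx2-2 line and 317 from the Foxj1 line midbrain. Of 35 members tested, 0 were called higher in the Nkx2-2 line, beside 12.7% of all genes, and 8 lower, beside 21.9%, with a median log2 ratio of -0.32 against -0.09 for all genes. The share called lower was near that of all genes. Of the 35, 10 had a ratio above 0, with Kif3a highest (log2 0.40), and 25 had a ratio below 0. Among all genes, 4744 were above 0 and 5626 below. The title of the Nkx2-2 sample carries the second project code alone, and against the 85 Ccdc153-high midbrain cells of that code 5 of 34 members were lower, beside 20.1% of all genes, and 0 higher, beside 16.3%. The Nkx2-2 line mice were all female, so line and sex cannot be told apart. The IFT-B genes had a median of 0.07, and the BBSome list held 4 of the 8 called, namely Bbs1, Bbs2, Bbs10 and Bbs12. Bbs2 had 45.4 CPM in the Nkx2-2 line cells and 140.3 CPM in the Foxj1 line cells (log2 -1.63), and Ift140 had 45.0 and 118 CPM in that order (log2 -1.39). In 19 cells a single cell weighed heavily: 1 cell gave 99.7% of the Traf3ip1 reads, 87.5% of the Kif3b reads, 66.8% of the Bbs2 reads and all reads of Bbs10. Kif3b, at 0.39 CPM in the Nkx2-2 line cells and 18.8 CPM in the Foxj1 line cells, rested on 8 reads in the Nkx2-2 line cells, too few to set a level. Several IFT-B genes had like levels, for example Ift22 with 516 CPM in the Nkx2-2 line and 514 CPM in the Foxj1 line, and Ift172, a peripheral IFT-B gene, with 157 and 154 CPM.

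Counting could touch a few members through neighbouring genes. In GENCODE vM21 on GRCm38, exons of Ift57 shared 7.86% of their length with the antisense gene Gm15518, those of Lztfl1 4.39%, those of Bbs4 3.21% and those of Arl6 2.62% with other genes. The counting was not stated to use strand, so reads in those stretches cannot be told apart from reads of the partner. The other members shared at most 1.62%. The samples held 94640544 to 439995813 reads. The intervals cover counting error only, because copies of 1 molecule are counted as separate reads.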

How the data were processed

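Cells of 5 samples, 1 per group, were sequenced by Smart-seq2, per the labels' protocols. The authors deposited a table of unscaled read counts (genes by cells). They also deposited log2 values, which were log2 of 1 plus the count divided by a factor of the cell, within 0.01 for 100% of values. The submitters' processing notes name STAR 2.3.1o, Seurat 3 and mm10, and the counting tool and annotation are not given in the sources used here. Columns were assigned by the start of their names, with 0 left over; columns starting Forebrain were read as lateral ventricle and those starting Tanycytes as the third ventricle, on anatomy.

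For each class the cells' counts were added up and scaled to CPM in Python 3.11.15 (numpy 2.4.6, pandas 2.3.3, scipy 1.17.1). Every cell was kept, and no doublet caller was run, the cells having been sorted into 96-well plates, per the labels' protocols. CPM have exact Poisson and shares of cells exact Clopper-Pearson 95% intervals. No test was run, since a group is 1 sample. A gene needed 10 CPM in either class and was called at 2-fold. A count of 0 was set to a floor of 3 reads over the class in ratios. Blocks of 96 consecutive cell numbers describe spread within a sample. The summing and calling were tested on simulated data.

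In each comparison the text names up to 6 members with the largest ratio each way and the member highest per kilobase in each complex; other genes were chosen after their values were seen. From other lists up to 3 genes with the highest CPM are named, with Mkks, Foxj1, Rfx2 and Rfx3 added after seeing values. The members, lists and classes were chosen with earlier results of these data known. The ciliary receptor list is described with the other observations. Of the members, 1 is counted in sums and counts over the list and is not reported singly here, and 1 oligodendrocyte marker is not used here. Endothelial markers were not analysed here. Alternatives changed the scaling, the minimum, the fold, the class thresholds, the depth, the wells and the cells used.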

Additional observations from a re-analysis of the deposited data

Results flagged for a closer look

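The log2 ratio of Ccdc153-high over Sspo-high midbrain cells pointed opposite ways in the lines, by at least 1.5-fold in both, for Traf3ip1, with 1.09 in the Foxj1 line and -1.21 in the Nkx2-2 line. The difference between lines was not tested. The Nkx2-2 line classes held 19 and 12 cells, and 1 of the 19 gave 99.7% of its Traf3ip1 reads.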

How the results depend on the processing

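With 2-fold lowered to 1.5-fold, the members called went to 13 of 36 (all higher, beside 22.2% of all genes) for Ccdc153-high over Sspo-high midbrain cells, to 1 for midbrain over lateral ventricle (Tulp3, lower, beside 7.02%), to 1 over the third ventricle (Wdr19, higher, beside 8.97%) and to 5 over spinal cord (4 higher, beside 18.9%, and 1 lower, beside 18.7%). Class thresholds at 0.5 times gave 1 over spinal cord, and the midbrain cells of the second project code gave 2 (1 each way). For Ccdc153-high cells of the Nkx2-2 over the Foxj1 line, a minimum of 20 CPM gave 5 lower and those cells 5 lower. With Nkx2-2 line cells in place of Foxj1 line cells, chosen after seeing the data, Ccdc153-high over Sspo-high called 10 of 33 members: 4 higher, beside 25.7% of all genes, and 6 lower, beside 32.3%, with a median of 0.06 against -0.20 for all genes. At most 1 mismatch in the X-box gave 5 members. With single blocks left out, 2 to 4 members were called for Ccdc153-high over Sspo-high, 30 to 32 over Mog-high, 0 over lateral ventricle, 0 to 1 over the third ventricle (1 without its block 2), 0 to 2 over spinal cord (2 without its block 1, 1 without its block 2) and 5 to 9 for the comparison of lines (5 without block 3 of the Nkx2-2 line). The cause was not tested. The other 118 alternative counts stayed within 1.5 times the reported one. With the deposited scaling the median log2 ratio of all genes in Ccdc153-high over Mog-high cells was -0.05, against 0.46 as reported, and in Ccdc153-high over Sspo-high cells 0.00, against -0.16. No paired analysis was possible because each group was 1 sample. Values of the Nkx2-2 line ependymal classes rest on 19 and 12 cells.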

Other observations

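Cells that passed none of the marker thresholds held less of the machinery than the ependymal classes. The 34 other cells of the Foxj1 line midbrain were mixed. They carried astrocyte markers (Slc1a3 at 2739 CPM and Aqp4 at 1084 CPM) and in part microglial ones (C1qa at 377 CPM). Their oligodendrocyte markers summed to 1996 CPM and their ependymal ones to 1065 CPM, without the threshold genes. They took 2643 CPM in the 36 genes and 2578 CPM in the 24 motile axoneme genes, the latter from 18.1 to 12377 CPM in single cells. The levels of this class are thus those of a mixture. These cells held 264 CPM of Arl3, 208 CPM of Wdr35 and 161 CPM of Ift122, against 252, 391 and 163 CPM in the Ccdc153-high cells of the same sample. Other members were lower there, such as Lztfl1 at 11.1 CPM. The 53 other cells of the Nkx2-2 line, with the oligodendrocyte precursor marker Pdgfra at 911 CPM and the astrocyte marker Gja1 at 1614 CPM, took 1223 CPM in the 36 genes. Kif3a stood at 141 CPM, Kifap3 at 92.1 and Ift20 at 88.2 CPM in them, while Ift88 stood at 2.31 CPM and Ift172 at 1.23 CPM.

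Genes of ciliary receptors and signalling were counted in the same way, with 14 in the count table. In Ccdc153-high over Sspo-high midbrain cells, 1 of the 9 tested was at least 2-fold higher, beside 14.9% of all genes. Another 1 was lower, beside 18.3%, and the median log2 ratio was 0.04. Pde6d, whose protein shuttles lipidated cargo released by ARL3, had 326 CPM in Ccdc153-high cells and 462 CPM in Sspo-high cells. Unc119b, another such carrier, had 148 and 126 CPM in that order. In Ccdc153-high over Mog-high cells of the Nkx2-2 line, 4 of 8 tested were higher, beside 39.6% of all genes, and 0 lower, beside 25.0%. All 8 had ratios above 0, with a median log2 ratio of 1.85. Pde6d had 361 CPM in Ccdc153-high cells and 202 CPM in Mog-high cells.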
